A study of Homo sapiens with 12 samples.

Results

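RNA-seq had been run on islet-like cells made from human cells of the embryonic stem cell line MEL1, and the results below concern one contrast in them: the effect of knocking out NKX2-2 minus the effect of knocking out CLEC16A. For each gene the contrast is (PB-N2-KO minus PB-N2-WT) minus (PB-C16-KO minus PB-C16-WT) on the log2 scale, so a positive value marks a gene that stood higher after NKX2-2 knockout than after CLEC16A knockout, each against its own wild type. All 12 libraries of the study entered it, 3 in each of 4 groups, named PB-N2-WT, PB-N2-KO, PB-C16-WT and PB-C16-KO. Cells of all groups carry the label ePP-derived islets and were collected on day 8 in the medium R6, where ePP stands for expandable pancreatic progenitor. The progenitors had been kept on feeder cells in a medium named EF6I, with EGF, bFGF, the compound 616452 and I-BET151. R6, which every group received, held B27, BSA, zinc sulfate, heparin, 616452, T3, LDN-193189, Compound E, vitamin C and forskolin. The labels name no edited clone, so a difference between cell lines and an effect of the knockout cannot be told apart, and they do not say whether the 3 libraries of a group came from separate cultures. P-values therefore reflect only how far these libraries scatter.

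The 2 count tables of the experiments held 60624 genes in common. Of these, 22343 had at least 10 counts in each experiment and 19852 passed the filter on low counts. A further 199 were left out because their counts in the NKX2-2 tables fell far short of their TPM there, among them CHGA, which codes for chromogranin A. The contrast was tested over the remaining 19653 genes.

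NKX2-2 is a homeodomain transcription factor that is required for the formation and identity of islet endocrine cells, and in mice its loss replaces hormone-producing cells with cells that express ghrelin. CLEC16A is an endolysosomal protein that regulates mitophagy, the removal of damaged mitochondria, in beta cells and other cell types. Islet endocrine cells arise from pancreatic progenitors through a transient state marked by the transcription factor NEUROG3, and stem cell cultures directed to islets can also contain enterochromaffin-like, intestinal, hepatic and mesenchymal cells.

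Libraries of the NKX2-2 experiment held 16157481 to 20649976 counts and those of the CLEC16A experiment 31364272 to 33763795. Levels below are CPM, counts relative to the TMM-scaled library size, and are set side by side only within an experiment because the tables of the 2 experiments were made apart. Of the 11 islet endocrine markers checked, none was at 0 counts in any group. Among pluripotency markers NANOG was at 0 in 3 of the 4 groups. PB-N2-WT replicate 3 stood apart from the other libraries of its group. In PB-N2-KO the pair furthest apart was replicates 1 and 3. Both PB-N2 libraries numbered 3 deviated from their group means together across genes (r 0.561). The numbers of genes past the test and in each direction class are therefore also given without them.

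The edited genes' own transcripts were read first. NKX2-2 (chr20:21511010-21514026, minus strand, hg38) stood at 107, 108 and 105 CPM in the 3 wild type and 101, 75.3 and 75.5 CPM in the 3 knockout libraries of its own experiment. The 2 groups did not overlap, but its log2 fold change was only -0.34 (adjusted p 0.0142, SE 0.10), and this call was lost under upper-quartile scaling, without PB-N2-KO replicate 2, without PB-N2-KO replicate 3 and without both libraries numbered 3, with adjusted p of up to 0.116. In the CLEC16A experiment NKX2-2 stood at 119, 137 and 124 CPM in the 3 wild type and 66.7, 66.8 and 59.5 CPM in the 3 knockout libraries, a log2 fold change of -0.98 (adjusted p 8.11e-08, SE 0.10). CLEC16A (chr16:10944488-11182189, plus strand, hg38) had a log2 fold change of 0.14 (adjusted p 0.373, SE 0.12) in its own knockout and of 0.03 (adjusted p 0.872, SE 0.12) in the other. Transcript levels of the targeted genes therefore do not check the knockout labels, since an edit can leave the transcript in place.

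The difference between the effects passed the test in 7958 of 19653 genes (40.5%). The test was edgeR's quasi-likelihood F test with Benjamini-Hochberg adjustment over all genes tested and a threshold of 0.05, which holds for every adjusted p below. Of these, 3888 (19.8%) were higher and 4070 (20.7%) lower with NKX2-2 knockout than with CLEC16A knockout. The balance depended on the scaling: upper-quartile scaling gave 4768 higher and 3498 lower, and limma on log2(TPM + 1) 4316 and 3136, so that the share of higher calls went from 48.9% to 57.7% and 57.9%. Without both PB-N2 libraries numbered 3 the counts were 3925 and 4152. With NKX2-2 knockout 3117 genes rose (15.9%) and 3674 fell (18.7%), and with CLEC16A knockout 3715 rose (18.9%) and 4204 fell (21.4%). Of the calls with NKX2-2 knockout 45.9% were rises, and under upper-quartile scaling 57.0% were. Without both PB-N2 libraries numbered 3, 2789 genes rose and 3341 fell with NKX2-2 knockout. In that fit 4182 rose and 4761 fell with CLEC16A knockout.

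Genes that passed the test for both knockouts numbered 3766, and they fell into 4 direction classes. The class lower in both held 1086 genes (5.53% of all genes tested) and the class higher in both 473 (2.41%). Genes that rose with NKX2-2 knockout and fell with CLEC16A knockout numbered 1023 (5.21%), and genes that fell with NKX2-2 knockout and rose with CLEC16A knockout numbered 1184 (6.02%). All genes counted in the latter 2 classes also passed the test of the difference. Upper-quartile scaling turned the order of the opposite classes, to 1283 and 1001 genes. Without both PB-N2 libraries numbered 3 the 4 classes held 1115, 497, 1030 and 1195 genes. With a change of at least 2-fold in both experiments the classes held 193, 105, 265 and 214 genes. In 5232 of all genes tested (26.6%) the knockout and wild type libraries did not overlap in either experiment. Genes named below as the largest of a class were picked among these, so lack of overlap is no further result for them. Across genes, which are not independent replicates, Pearson's r between the effects was -0.075 over 19653 genes. Of the 1086 genes lower in both, 299 fell further with NKX2-2 knockout, 103 fell further with CLEC16A knockout and 684 did not pass the test of the difference.

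**Figure D1:**
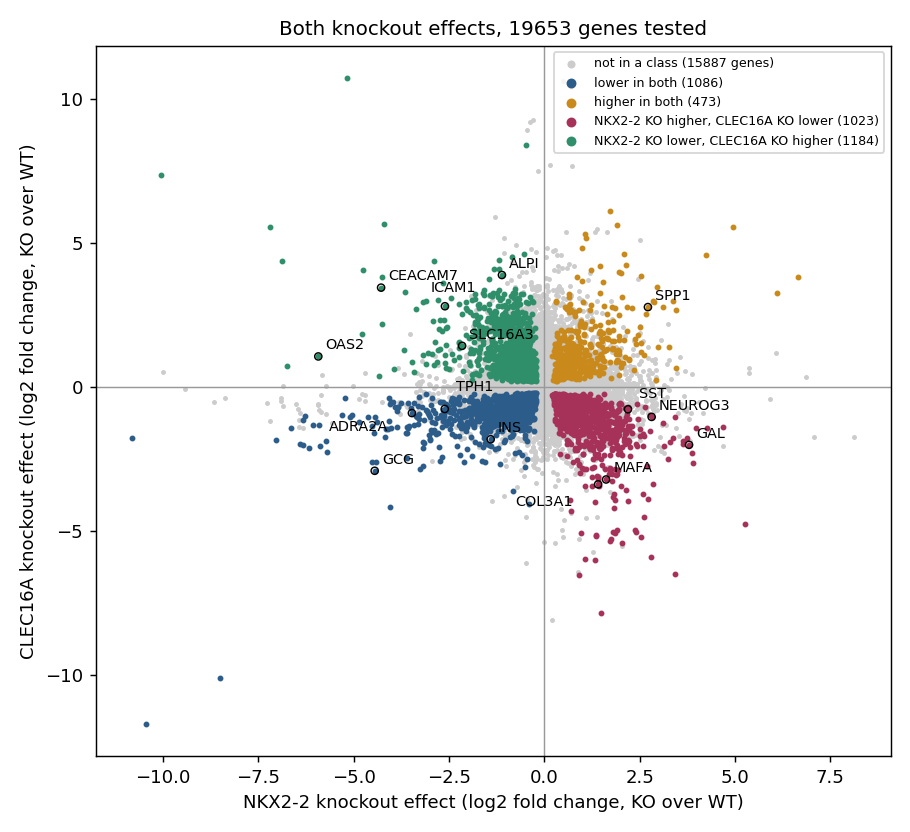
Log2 fold change of each of 19653 genes with NKX2-2 knockout (horizontal axis) and with CLEC16A knockout (vertical axis), each against its own wild type, with the 4 direction classes in colour and selected genes ringed. All 4 quadrants are filled, with 1023 and 1184 genes in the opposite classes beside 1086 lower in both and 473 higher in both; points at the far ends are genes with few or no counts in one group.

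Hormone genes of the islet mostly fell with both knockouts. Of 7 tested, GCG, INS, PPY and PYY were lower in both, against 5.53% of all genes in that class, and the median log2 fold change was -1.40 with NKX2-2 knockout and -1.47 with CLEC16A knockout, beside 0.02 and -0.07 over all genes tested. GCG (chr2:162142873-162152404, minus strand, hg38), the gene of glucagon, stood at 1387, 1359 and 1658 CPM in the 3 wild type and 50.7, 73.0 and 78.5 CPM in the 3 knockout libraries of the NKX2-2 experiment. In the CLEC16A experiment it stood at 1971, 1994 and 2064 CPM in the 3 wild type and 269, 268 and 265 CPM in the 3 knockout libraries. Every knockout library was below every wild type library in both experiments. The log2 fold changes were -4.44 (SE 0.14) and -2.91 (SE 0.13), and the fall was larger with NKX2-2 knockout by -1.53 (adjusted p 1.31e-07, SE 0.17). In these bulk samples, fewer cells of a type and less RNA per cell cannot be told apart.

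INS, the insulin gene, stood at 603, 639.6 and 929 CPM in the 3 wild type and 256, 252 and 313 CPM in the 3 knockout libraries of the NKX2-2 experiment and at 659, 724 and 575 CPM in the 3 wild type and 177, 203 and 177 CPM in the 3 knockout libraries of the other. The groups were apart in both experiments, with the wild type libraries the higher. Its falls were 2.65-fold and 3.52-fold, and their difference of 0.41 (adjusted p 0.105, SE 0.20) did not pass the test, though it did without PB-N2-WT replicate 3, which held the highest level, without both PB-N2 libraries numbered 3 and with a replicate block. PYY, which codes for peptide YY, fell by 4.14 on the log2 scale with NKX2-2 knockout and by 1.47 with CLEC16A knockout, a difference of -2.67 (adjusted p 1.54e-11, SE 0.17). PPY, the gene of pancreatic polypeptide, had values of -2.68 and -2.42 with no called difference (adjusted p 0.651). GHRL, the ghrelin gene, had log2 fold changes of -0.31 (adjusted p 0.0924, SE 0.14) and -1.36 (adjusted p 4.75e-08, SE 0.14), and the difference of 1.05 (adjusted p 0.000176, SE 0.20) passed; the former passed without PB-N2-WT replicate 1. IAPP, which codes for amylin, had values of -1.24 (adjusted p 0.14, SE 0.63) and 0.87 (adjusted p 0.252, SE 0.58), and its difference of -2.10 (adjusted p 0.055, SE 0.86) did not pass. Without PB-C16-WT replicate 3 it and the CLEC16A effect passed, and the difference also passed with a replicate block and with TMM within each experiment. In fits of log2(TPM + 1) and log2(TPM + 0.1) the CLEC16A effect on IAPP was negative and the difference close to 0, so no direction is given for this gene.

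SST, the somatostatin gene (chr3:187668906-187670399, minus strand, hg38), moved in opposite directions. Its levels were 22.3, 24.0 and 34.6 CPM in the 3 wild type and 132, 114 and 124 CPM in the 3 knockout libraries with NKX2-2 and 94.8, 109 and 94.8 CPM in the 3 wild type and 54.5, 59.2 and 60.6 CPM in the 3 knockout libraries with CLEC16A. All 3 NKX2-2 knockout libraries lay above their wild type, and all 3 CLEC16A knockout libraries lay below theirs. SST rose 4.58-fold with NKX2-2 knockout (adjusted p 8.45e-12) and fell 1.71-fold with CLEC16A knockout (adjusted p 1.45e-05). The difference was 2.97 (adjusted p 5.75e-12, SE 0.17). The 250 bases before the start of SST, from RefSeq's promoter table for GRCh38.p14, are shown because SST was the hormone gene that moved in opposite directions; capitals mark the cAMP response element TGACGTCA, searched on both strands.
SST (chr3:187670395-187670644, minus strand, GRCh38.p14): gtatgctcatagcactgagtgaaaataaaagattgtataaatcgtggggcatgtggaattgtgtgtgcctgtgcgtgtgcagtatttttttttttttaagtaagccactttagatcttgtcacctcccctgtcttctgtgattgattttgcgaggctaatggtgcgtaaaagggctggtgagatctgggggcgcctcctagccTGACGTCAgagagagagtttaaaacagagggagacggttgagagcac
The same letters were found before the start of 1 of the 7 islet hormone genes and of 3.04% of the 12787 tested genes with an entry. A match is a description of the sequence and not a measured site.

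Other delta cell genes divided between classes. HHEX, a homeobox factor of delta cells, moved in opposite directions, with log2 fold changes of 0.86 and -1.13. RBP4, a retinol carrier, rose in both, at 2.22 and 0.92, as did FRZB, a secreted Wnt antagonist, at 2.35 and 0.58. LEPR, the leptin receptor, rose in the NKX2-2 experiment by 2.93 (adjusted p 7.7e-16, SE 0.10); its rise of 0.24 with CLEC16A knockout was lost when any 1 of the 6 CLEC16A libraries or PB-N2-WT replicate 2 was left out, under upper-quartile scaling and in fits of TPM. Of 11 delta cell genes, 5 were higher in both, 3 were in the class of SST and 2 were lower in both, beside 2.41%, 5.21% and 5.53% of all genes. The 5 became 3 without PB-C16-KO replicate 2 or 3 or without PB-C16-WT replicate 1 or 3.

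Genes of beta cell identity fell together in both experiments. Of 32 tested, 20 were lower in both, 2 rose with NKX2-2 knockout and fell with CLEC16A knockout, 2 moved the other way round and the remaining 8 were in no class. Over all genes 5.53% were lower in both. The median log2 fold changes were -0.91 and -0.79. For several genes the falls were of like size. ERO1B, an oxidase of insulin folding, stood at 352, 326 and 353 CPM in the 3 wild type and 137, 151 and 150.5 CPM in the 3 knockout libraries with NKX2-2 and at 392, 383 and 366 CPM in the 3 wild type and 179, 165 and 154 CPM in the 3 knockout libraries with CLEC16A. Its log2 fold changes were -1.24 and -1.20, with a difference of -0.04 (adjusted p 0.824, SE 0.12). SLC30A8, the zinc transporter of insulin granules, had -1.03 and -1.16 (difference 0.12 (adjusted p 0.49, SE 0.13)). KCNJ11 and ABCC8, the 2 subunits of the KATP channel, had -1.38 and -1.14 and -1.07 and -1.30. The difference of KCNJ11 passed without PB-N2-KO replicate 1. A difference that missed the threshold does not show equal effects, and the SE gives its precision.

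Other beta cell genes fell further with NKX2-2 knockout. PCSK1, the proinsulin convertase, stood at 508, 476 and 451 CPM in the 3 wild type and 29.9, 28.8 and 27.0 CPM in the 3 knockout libraries of the NKX2-2 experiment. In the CLEC16A experiment it stood at 410.1, 401 and 404 CPM in the 3 wild type and 331, 303 and 294 CPM in the 3 knockout libraries. Groups did not overlap in either experiment. The fall with NKX2-2 knockout was 16.8-fold, and the CLEC16A effect was -0.39 (adjusted p 0.000549, SE 0.08). The difference of -3.68 (adjusted p 1.22e-15, SE 0.12) was among the 3 smallest p of this list. SYT13, an atypical synaptotagmin of endocrine cells, had log2 fold changes of -3.58 and -0.56 (difference -3.02 (adjusted p 1.74e-13, SE 0.14)). Of the transcription factors, PDX1 had -1.21 and -0.54 (difference -0.67 (adjusted p 0.000635, SE 0.14)) and NKX6-1 had -1.91 and -0.72 (difference -1.19 (adjusted p 3.15e-07, SE 0.14)). PAX6 fell in both with no called difference, at -1.34 and -1.14.

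MAFA and ISL1 rose with NKX2-2 knockout, where most of that list fell, and fell with CLEC16A knockout. MAFA, which activates the insulin gene in mature beta cells, stood at 4.03, 4.67 and 5.01 CPM in the 3 wild type and 13.7, 14.2 and 14.2 CPM in the 3 knockout libraries with NKX2-2 and at 8.10, 8.75 and 8.69 CPM in the 3 wild type and 0.983, 0.851 and 0.908 CPM in the 3 knockout libraries with CLEC16A. All NKX2-2 knockout libraries were above their wild type, and all CLEC16A knockout libraries were below 1 CPM. The rise was 3.08-fold, the fall 9.27-fold, and the difference 4.83 (adjusted p 3.01e-13, SE 0.23). ISL1, a LIM homeodomain factor of all endocrine cells, had 0.30 and -0.94 (difference 1.24 (adjusted p 9.24e-09, SE 0.12)). NEUROD1 did not pass the test with NKX2-2 knockout, at -0.11 (adjusted p 0.323, SE 0.08), and had -0.57 (adjusted p 8.22e-06, SE 0.08) with CLEC16A knockout.

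Endocrine progenitor genes showed the same split. NEUROG3 (chr10:69571698-69573238, minus strand, hg38), which starts the endocrine programme, stood at 10.2, 6.36 and 7.61 CPM in the 3 wild type and 64.5, 54.9 and 51.0 CPM in the 3 knockout libraries of the NKX2-2 experiment. In the CLEC16A experiment it stood at 16.5, 17.6 and 17.8 CPM in the 3 wild type and 9.47, 6.53 and 9.31 CPM in the 3 knockout libraries. The NKX2-2 knockout libraries lay far above their wild type, and the CLEC16A knockout libraries lay below theirs. Its rise was 7.04-fold, its log2 fold change with CLEC16A knockout -1.04 (adjusted p 7e-06, SE 0.15) and the difference 3.85 (adjusted p 3.76e-12, SE 0.22). Of 19 genes of this list, 7 were lower in both, among them FEV at -2.48 and -0.86 and INSM1 at -1.16 and -0.78, and 4 were in the class of NEUROG3. Over all genes 5.53% and 5.21% were in these classes. The 4 became 2 under leaving out any 1 of 5 libraries (PB-C16-KO replicate 2, PB-C16-WT replicates 1 and 3, PB-N2-KO replicates 1 and 2), while NEUROG3 kept its calls in every alternative run. DLL4, a Notch ligand, had -2.66 and -0.51.

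Of 15 alpha cell genes, 6 fell in both, beside 5.53% of all genes. IRX1, an Iroquois homeobox factor, stood at 19.3, 20.6 and 19.7 CPM in the 3 wild type and 1.39, 1.05 and 1.27 CPM in the 3 knockout libraries with NKX2-2 and at 29.1, 25.6 and 25.7 CPM in the 3 wild type and 11.5, 8.17 and 9.99 CPM in the 3 knockout libraries with CLEC16A. Both knockout groups lay below their wild type. Its difference was -2.57 (adjusted p 6.06e-09, SE 0.23). DPP4, the peptidase that cleaves GLP-1, had -0.21 (adjusted p 0.0839, SE 0.09) with NKX2-2 knockout and 1.60 (adjusted p 8.7e-12, SE 0.10) with CLEC16A knockout, and the difference of -1.81 passed (adjusted p 2.54e-10).

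Genes of serotonin-producing, enterochromaffin-like cells fell in both and fell further with NKX2-2 knockout. Of 15 genes, 11 were lower in both, beside 5.53% of all genes. The difference passed the test in 11, all lower with NKX2-2 knockout, beside 20.7% of all genes. The median log2 fold changes were -2.33 and -0.65, and the median difference -1.61 beside 0.06 over all genes. TPH1, which catalyses the first step of serotonin synthesis in gut and islet, stood at 415, 409.8 and 352 CPM in the 3 wild type and 71.0, 61.0 and 61.0 CPM in the 3 knockout libraries of the NKX2-2 experiment. It stood at 764, 795 and 729.8 CPM in the 3 wild type and 462, 409 and 477 CPM in the 3 knockout libraries of the CLEC16A experiment. Knockout libraries were the lower in both, by 6.10-fold and 1.70-fold, and the difference was -1.84 (adjusted p 1.98e-10, SE 0.13). LMX1A, a LIM homeodomain factor, had -2.71 and -0.54 (difference -2.18 (adjusted p 9.8e-12, SE 0.13)). ADRA2A, an adrenergic receptor, had -3.47 and -0.91 (difference -2.56 (adjusted p 4.55e-12, SE 0.15)). TRPA1, an irritant-sensing channel, had -3.42 and -1.34, and SLC18A2, a vesicular monoamine transporter, -2.65 and -0.81.

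TAC1 was the exception in this list. The gene, a precursor of substance P, stood at 8.48, 9.74 and 10.0 CPM in the 3 wild type and 0.0663, 0 and 0.191 CPM in the 3 knockout libraries of the NKX2-2 experiment, with 4 counts over the 3 knockout libraries. In the CLEC16A experiment it stood at 9.33, 11.7 and 10.2 CPM in the 3 wild type and 20.1, 18.3 and 13.5 CPM in the 3 knockout libraries, a log2 fold change of 0.74 (adjusted p 0.000963, SE 0.17) that was lost with limma on log2(TPM + 0.1). It was all but lost in the former and higher than wild type in all 3 libraries of the latter. GIP, an incretin gene, fell in both, at -6.32 and -2.02, with 17 counts over the NKX2-2 knockout libraries and 400 over the CLEC16A knockout libraries. CCK, the cholecystokinin gene, had 3.81 (adjusted p 1.33e-05, SE 0.57) with NKX2-2 knockout, -1.87 (adjusted p 0.0507, SE 0.75) with CLEC16A knockout and a difference of 5.68 (adjusted p 3.62e-05, SE 0.94).

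Many genes of the secretory machinery fell in both experiments. Of 11 genes of granins and dense core granules, 6 were lower in both, of 23 exocytosis genes 12 were, and of 25 ion channels of excitability 12 were. Over all genes 5.53% were. PTPRN, a granule membrane protein, stood at 200.5, 207 and 184 CPM in the 3 wild type and 98.3, 78.3 and 69.2 CPM in the 3 knockout libraries with NKX2-2 and at 326, 302 and 305 CPM in the 3 wild type and 136, 122 and 124 CPM in the 3 knockout libraries with CLEC16A. Every knockout library lay below its wild type libraries, and the difference of 0.02 (adjusted p 0.917, SE 0.15) did not pass. RESP18, a granule protein, had -1.62 and -1.56 and SNAP25, a SNARE protein, -0.67 and -0.66. CHGB, chromogranin B, fell further with NKX2-2 knockout, at -1.24 and -0.61 (difference -0.63 (adjusted p 0.000186, SE 0.12)). The calcium channel gene CACNA1D had -2.19 and -1.04 (difference -1.15 (adjusted p 0.000456, SE 0.24)), a difference lost with limma on log2(TPM + 1).

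A few secretory genes moved in opposite directions. CPE, carboxypeptidase E, had 0.47 and -0.56 (difference 1.02 (adjusted p 3.23e-07, SE 0.12)), and SYT4, a synaptotagmin of secretory granules, 1.59 and -0.96 (difference 2.56 (adjusted p 1.27e-11, SE 0.16)). VGF and PCSK1N, granin-like proteins, had 0.41 and -1.47 and 0.36 and -1.20. Their rises with NKX2-2 knockout were lost without PB-N2-KO replicate 1, without PB-N2-WT replicate 1 and without PB-N2-WT replicate 2, and with each experiment fitted alone, and that of PCSK1N also without PB-N2-KO replicate 3 and in fits of TPM, while both differences passed in every alternative. SYT11, another synaptotagmin, went the other way, at -0.86 and 3.16 (difference -4.02 (adjusted p 6.86e-15, SE 0.15)).

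Apart from hormone genes, the largest falls shared by both knockouts were in genes with low levels. ZNF875, a zinc finger gene, stood at 6.71, 7.60 and 7.04 CPM in PB-N2-WT and at 18.7, 15.8 and 16.9 CPM in PB-C16-WT, and had 0 counts in all 6 knockout libraries. With a floor of 3 counts per library it was at least 38.4-fold lower with NKX2-2 knockout and at least 177-fold lower with CLEC16A knockout. PPP1R17, a phosphatase inhibitor, stood at 26.3, 24.1 and 32.5 CPM in the 3 wild type and 3.71, 2.16 and 3.38 CPM in the 3 knockout libraries with NKX2-2 and 29.1, 21.8 and 29.3 CPM in the 3 wild type and 3.64, 4.45 and 3.79 CPM in the 3 knockout libraries with CLEC16A. NELL1, a secreted glycoprotein, had -4.40 and -2.60, LMO1, a LIM-only factor, -2.29 and -2.06, SKOR2, a corepressor, -2.73 and -2.58, and WSCD2 -3.17 and -1.91.

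**Figure D2:**
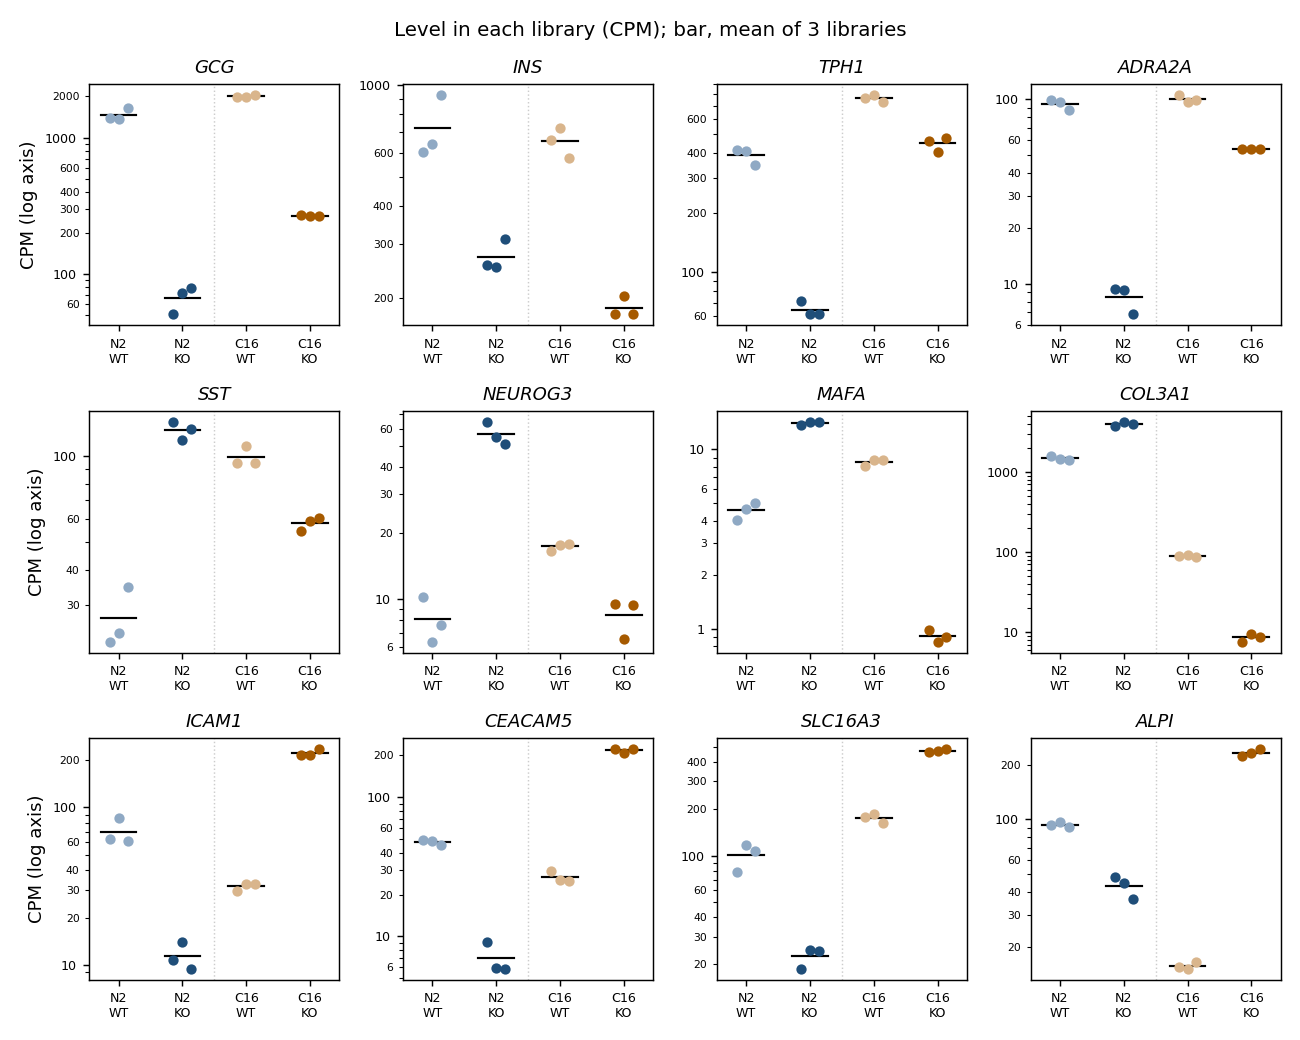
Level of 12 genes in each of the 12 libraries (CPM, log axis), by group, with a bar at the mean of 3 libraries. GCG, INS, TPH1 and ADRA2A fell in both experiments, SST, NEUROG3, MAFA and COL3A1 rose in the NKX2-2 and fell in the CLEC16A knockout, and ICAM1, CEACAM5, SLC16A3 and ALPI did the reverse.

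Most mesenchymal genes had a higher effect with NKX2-2 than with CLEC16A knockout. Of 25 tested, 22 had a difference higher with NKX2-2 knockout and 1 lower, beside 19.8% and 20.7% of all genes. In all, 12 rose with NKX2-2 knockout and fell with CLEC16A knockout, against 5.21% of all genes in that class. The medians were 1.38 and -0.79. COL3A1 (chr2:188974320-189012746, plus strand, hg38), which codes for type III collagen, stood at 1601, 1462 and 1410.0 CPM in the 3 wild type and 3729, 4236 and 3936 CPM in the 3 knockout libraries of the NKX2-2 experiment. Across the CLEC16A libraries it measured 89.0, 92.1 and 86.6 CPM in the 3 wild type and 7.61, 9.37 and 8.72 CPM in the 3 knockout libraries. The knockout libraries were the higher throughout the former and the lower throughout the latter. The log2 fold changes were 1.41 and -3.38 and the difference 4.79 (adjusted p 1.92e-16, SE 0.14). COL1A1, type I collagen, had 0.92 and -2.98, and PDGFRA, a PDGF receptor, 3.29 and -1.92. DCN, the proteoglycan decorin, stood at 1.92, 2.40 and 1.91 CPM in the 3 wild type and 0, 0 and 0.13 CPM in the 3 knockout libraries of the CLEC16A experiment, with 4 counts over that knockout group, and rose by 2.04 on the log2 scale with NKX2-2 knockout. Not all followed: FN1, fibronectin, had -0.86 and 0.68, SPARC, a matrix glycoprotein, rose in both at 1.45 and 0.72, and FBN1, fibrillin 1, fell in both at -0.52 and -0.52.

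The summed level of the 6 mesenchyme markers COL1A1, COL1A2, COL3A1, PDGFRA, LUM and DCN ran from 2527 to 2819 CPM in PB-N2-WT and from 6331 to 7040.0 CPM in PB-N2-KO. It ran from 149.8 to 163 CPM in PB-C16-WT and from 41.8 to 48.5 CPM in PB-C16-KO. None of the 6 was at 0 in any group. All 6 rose with NKX2-2 knockout and 5 fell with CLEC16A knockout. The 11 islet endocrine markers summed to 5280.0 to 6006 CPM in PB-N2-WT, 1780.0 to 1911 CPM in PB-N2-KO, 30130.0 to 33320.0 CPM in PB-C16-WT and 15700.0 to 18060.0 CPM in PB-C16-KO. These sums include CHGA and SCG5, although only the other 9 markers were among the genes tested. CHGA alone, at a mean of 848200 counts per library in PB-C16-WT and 452800 in PB-C16-KO, made up most of the sum there. Its counts in the NKX2-2 tables, which fell far short of its TPM, were summed as they stand. Over all 25 mesenchyme genes the summed level, to which genes such as FN1 and SPARC add, ran from 5137 to 6172 CPM in PB-N2-WT and from 10910.0 to 12160.0 CPM in PB-N2-KO. In PB-C16-WT that sum ran from 2656 to 3005 CPM and in PB-C16-KO from 3715 to 4171 CPM, so it was higher with CLEC16A knockout where the sum of the 6 markers was lower. The part of cell makeup in the results was not tested.

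Other genes with the largest opposite effects of this direction were COL15A1, COL6A3, HOXB4, HOXB2, GAL and OPCML. COL6A3, a collagen VI chain, stood at 68.7, 65.7 and 49.7 CPM in the 3 wild type and 212, 229.6 and 188 CPM in the 3 knockout libraries with NKX2-2 and at 8.76, 8.68 and 9.13 CPM in the 3 wild type and 1.48, 0.662 and 0.649 CPM in the 3 knockout libraries with CLEC16A. COL15A1, a basement membrane collagen, had 1.07 and -5.96, with 8 counts over PB-C16-KO. GAL, the gene of the neuropeptide galanin, stood at 5.80, 4.78 and 8.12 CPM in the 3 wild type and 99.8, 73.3 and 85.3 CPM in the 3 knockout libraries with NKX2-2 and at 16.4, 18.2 and 15.3 CPM in the 3 wild type and 4.49, 4.98 and 2.92 CPM in the 3 knockout libraries with CLEC16A. It was higher in every NKX2-2 knockout library than in any library of its wild type, and lower in every CLEC16A knockout library. The choice of these genes required such a lack of overlap. The difference was 5.80 (adjusted p 5.72e-13, SE 0.26). The homeobox genes HOXB4 and HOXB2, which mark position along the body axis, had 1.82 and -4.21 and 1.70 and -3.01, and OPCML, a neural adhesion protein, 1.44 and -3.44. The rise of HOXB2 was lost with limma on log2(TPM + 0.1).

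Neuronal genes followed the same direction. Of 20 tested, 18 had a difference higher with NKX2-2 knockout and none lower, 7 rose with NKX2-2 knockout and fell with CLEC16A knockout, and 1 (SYP, synaptophysin, at -0.67 and -0.96) fell in both. Over all genes 19.8% had a higher difference and 5.21% were in the opposite class. MAP2, a dendritic microtubule protein, stood at 11.0, 10.6 and 8.12 CPM in the 3 wild type and 49.9, 46.0 and 34.7 CPM in the 3 knockout libraries with NKX2-2 and 11.2, 13.4 and 15.4 CPM in the 3 wild type and 4.56, 5.14 and 4.18 CPM in the 3 knockout libraries with CLEC16A. Groups were apart in both experiments, in opposite directions, and the difference was 3.65 (adjusted p 1.25e-11, SE 0.23). NCAM1, a neural and endocrine adhesion molecule, had 0.67 and -1.30, and the neurofilament genes NEFL and NEFM 1.34 and -0.83 and 0.74 and -1.09. STMN2, a marker of neurons that endocrine cells share, passed only with CLEC16A knockout, at 0.23 (adjusted p 0.1, SE 0.10) and -1.24 (adjusted p 2.7e-09, SE 0.11). Of 10 genes of endothelium and blood, 4 were in the same class, among them KDR, a VEGF receptor, at 1.35 and -5.17 with 6 counts over PB-C16-KO. The 4 became 2 without PB-N2-KO replicate 2 or without PB-N2-WT replicate 2.

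Inflammatory genes of the NF-kB pathway moved the reverse way. Of 19 tested, 18 had a difference lower with NKX2-2 knockout and none higher, beside 20.7% and 19.8% of all genes. In all, 12 fell with NKX2-2 knockout and rose with CLEC16A knockout, against 6.02% of all genes in that class. The medians were -0.77 and 1.17. ICAM1 (chr19:10270835-10286615, plus strand, hg38), a leukocyte adhesion receptor, stood at 63.4, 85.0 and 61.4 CPM in the 3 wild type and 10.8, 14.1 and 9.49 CPM in the 3 knockout libraries of the NKX2-2 experiment. With CLEC16A its levels were 29.6, 32.5 and 32.9 CPM in the 3 wild type and 216, 213 and 234 CPM in the 3 knockout libraries. The fall was 6.08-fold, the rise 6.98-fold and the difference -5.41 (adjusted p 2.09e-15, SE 0.19). C3, a complement component, had -1.96 and 2.62, and TNFAIP2, a TNF-induced gene, -1.67 and 2.00. Among the chemokines, CCL20 had -1.28 and 2.56 and CXCL8 -1.94 and 0.75. TNFAIP3, an inhibitor of the pathway, had -0.82 and 1.64, and NFKBIA, another, passed only with CLEC16A knockout, at -0.18 (adjusted p 0.148, SE 0.09) and 0.70 (adjusted p 9.98e-07, SE 0.09).

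Interferon and antigen presentation genes fell with NKX2-2 knockout and were divided with CLEC16A knockout. Of 28 tested, 26 had a difference lower with NKX2-2 knockout and none higher, beside 20.7% and 19.8% of all genes. With NKX2-2 knockout 24 fell, beside 18.7% of all genes, while with CLEC16A knockout 15 rose and 5 fell, beside 18.9% and 21.4%. So 11 were in opposite directions and 5 fell in both, among them IFI6, IFIT1 and ISG15. Over all genes 6.02% and 5.53% were in these classes. OAS2, an antiviral enzyme, stood at 15.8, 18.4 and 15.2 CPM in the 3 wild type and 0.464, 0.221 and 0.128 CPM in the 3 knockout libraries with NKX2-2 and at 5.49, 5.97 and 6.04 CPM in the 3 wild type and 13.1, 11.9 and 11.5 CPM in the 3 knockout libraries with CLEC16A. The fall left 13 counts over 3 libraries, and in the other experiment all knockout libraries were the higher. IFIT3, an antiviral protein (chr10:89327894-89340971, plus strand, hg38), stood at 46.2, 49.0 and 48.7 CPM in the 3 wild type and 24.7, 28.8 and 29.1 CPM in the 3 knockout libraries with NKX2-2 and at 20.4, 23.1 and 20.2 CPM in the 3 wild type and 44.5, 42.9 and 54.4 CPM in the 3 knockout libraries with CLEC16A. It fell in the former and rose in the latter, at -0.80 and 1.16 (difference -1.95 (adjusted p 6.31e-10, SE 0.15)). IFI6, a mitochondrial interferon-induced protein (chr1:27666061-27672218, minus strand, hg38), stood at 413, 437 and 568 CPM in the 3 wild type and 59.9, 57.5 and 64.4 CPM in the 3 knockout libraries with NKX2-2 and at 451, 523 and 407 CPM in the 3 wild type and 324, 321 and 240.4 CPM in the 3 knockout libraries with CLEC16A. It was lower in every knockout library of both, at -2.96 and -0.64 (difference -2.32 (adjusted p 1.55e-09, SE 0.18)). MX1, a GTPase, had -2.88 and 0.76, and HLA-B, a class I antigen-presenting chain, -1.30 and 1.51.

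IFIT3 and IFI6 are shown side by side because they fall into different direction classes while the 250 bases before the start of each hold the core of the interferon-stimulated response element, which is GAAA, any 2 bases and GAAA again, in capitals as it reads on the strand shown or as its reverse complement. For IFIT3 the first of 2 listed starts is given. The starts are RefSeq's and lie inside the gene spans given above, so part of each stretch overlaps its gene. Matches numbered 2 in IFIT3 and 3 in IFI6.
IFIT3 (chr10:89327747-89327996, plus strand, GRCh38.p14): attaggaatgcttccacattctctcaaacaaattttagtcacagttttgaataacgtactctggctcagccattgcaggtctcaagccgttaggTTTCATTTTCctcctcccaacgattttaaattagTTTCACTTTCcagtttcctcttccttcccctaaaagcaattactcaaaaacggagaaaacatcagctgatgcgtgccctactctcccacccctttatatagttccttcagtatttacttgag
IFI6 (chr1:27672193-27672442, minus strand, GRCh38.p14): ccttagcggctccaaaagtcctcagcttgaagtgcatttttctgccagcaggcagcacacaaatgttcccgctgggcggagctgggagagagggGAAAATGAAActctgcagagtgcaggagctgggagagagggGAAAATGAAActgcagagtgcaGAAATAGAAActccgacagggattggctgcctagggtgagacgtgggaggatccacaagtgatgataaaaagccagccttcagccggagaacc
The letters were found before at least 1 listed start of 14 of the 20 interferon genes with an entry (70.0%), against 3.32% of the 12787 tested genes with one. Among genes lower in both the share was 2.78% and among genes lower with NKX2-2 and higher with CLEC16A knockout 5.30%.

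Glycolysis and hypoxia genes had the highest share of the 39 lists in the class lower with NKX2-2 and higher with CLEC16A knockout. Of 30 tested, 20 fell with NKX2-2 knockout and rose with CLEC16A knockout, beside 6.02% of all genes. A difference lower with NKX2-2 knockout was called in 26, beside 20.7% of all genes, against 2 higher. The medians were -0.56 and 0.59. SLC16A3, the lactate exporter, stood at 78.2, 117 and 107 CPM in the 3 wild type and 18.7, 24.8 and 24.3 CPM in the 3 knockout libraries of the NKX2-2 experiment. Its CLEC16A values were 178, 186 and 162 CPM in the 3 wild type and 463, 467 and 484 CPM in the 3 knockout libraries. Groups did not overlap in either, and the difference was -3.58 (adjusted p 6.03e-13, SE 0.18). LDHA, lactate dehydrogenase A, had -1.02 and 1.11, PFKFB3, a regulator of glycolytic flux, -1.77 and 0.91, and VEGFA, a hypoxia-induced growth factor, -0.96 and 0.99. GAPDH, often used as a reference gene, had -0.36 and 0.40 (difference -0.76 (adjusted p 0.000102, SE 0.14)). PDK1, which restrains pyruvate entry into mitochondria, passed in neither, at 0.11 (adjusted p 0.537, SE 0.12) and 0.15 (adjusted p 0.322, SE 0.12).

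ALDOC, aldolase C (chr17:28573115-28577264, minus strand, hg38), stood at 60.9, 64.7 and 78.4 CPM in the 3 wild type and 9.42, 12.5 and 12.0 CPM in the 3 knockout libraries with NKX2-2 and at 59.8, 59.9 and 55.3 CPM in the 3 wild type and 94.0, 80.0 and 103 CPM in the 3 knockout libraries with CLEC16A. It fell 5.99-fold and rose 1.58-fold, and the difference was -3.25 (adjusted p 1.11e-12, SE 0.17). The 250 bases before its start in RefSeq's promoter table are shown. They hold 3 matches to the core of the hypoxia response element, ACGTG, in capitals on either strand, 2 of which overlap in CACGTG. That start lies inside the gene span given above, so all 250 bases lie within that span.
ALDOC (chr17:28576896-28577145, minus strand, GRCh38.p14): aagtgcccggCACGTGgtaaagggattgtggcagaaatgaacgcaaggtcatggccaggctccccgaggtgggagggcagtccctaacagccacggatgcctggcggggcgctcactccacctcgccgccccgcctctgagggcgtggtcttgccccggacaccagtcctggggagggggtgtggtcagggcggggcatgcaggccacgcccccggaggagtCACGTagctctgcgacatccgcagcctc
ACGTG was found in 18 of 27 glycolysis and hypoxia genes with an entry (66.7%), against 27.2% of the tested genes with one, and in 29.9% of genes lower with NKX2-2 and higher with CLEC16A knockout.

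Epithelial junction and keratin genes also moved in opposite directions, with 14 of 24 lower with NKX2-2 knockout and higher with CLEC16A knockout and medians of -0.71 and 1.57. Over all genes 6.02% were in that class. CEACAM5, an epithelial adhesion protein, stood at 49.6, 48.3 and 45.5 CPM in the 3 wild type and 9.15, 5.92 and 5.86 CPM in the 3 knockout libraries with NKX2-2 and 29.7, 25.4 and 24.8 CPM in the 3 wild type and 220.2, 208 and 222 CPM in the 3 knockout libraries with CLEC16A. All knockout libraries were below their wild type in the former and above it in the latter. The difference was -5.81 (adjusted p 3.58e-16, SE 0.18). Its relatives CEACAM6 and CEACAM7 had -2.16 and 2.54 and -4.28 and 3.45; members of this family are alike in sequence, so counts may be shared between them. CDH1, E-cadherin, had -0.86 and 2.09, CLDN4, a tight junction claudin, -1.43 and 1.98, and EPCAM, an epithelial adhesion molecule, -0.68 and 1.57.

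Intestinal and hepatic genes rose with CLEC16A knockout, and a part of them fell with NKX2-2 knockout. Of 27 enterocyte and intestine genes, 23 rose with CLEC16A knockout, 12 were also lower with NKX2-2 knockout and 3 rose in both. Over all genes these shares were 18.9%, 6.02% and 2.41%. ALPI, intestinal alkaline phosphatase, stood at 93.5, 96.4 and 90.5 CPM in the 3 wild type and 48.5, 45.0 and 36.5 CPM in the 3 knockout libraries of the NKX2-2 experiment. Across the CLEC16A libraries it measured 15.5, 15.2 and 16.5 CPM in the 3 wild type and 224, 230.4 and 244 CPM in the 3 knockout libraries. The rise was 14.8-fold, the fall 2.16-fold and the difference -5.00 (adjusted p 1.25e-16, SE 0.14). APOA4, an intestinal apolipoprotein, had -0.85 and 4.53, and CDX2, an intestinal transcription factor, -0.80 and 0.91. FABP2, an intestinal fatty acid carrier, passed the test with CLEC16A knockout and not with NKX2-2 knockout, at 0.07 (adjusted p 0.747, SE 0.13) and 3.49 (adjusted p 2.09e-13, SE 0.15), a difference of -3.42 (adjusted p 1.86e-11, SE 0.19).

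Of 28 genes of liver plasma proteins, 21 rose with CLEC16A knockout, 8 of them in the opposite class and 6 in the class higher in both. With NKX2-2 knockout 8 rose and 9 fell, and the median log2 fold change was 0.03. Over all genes 18.9% rose with CLEC16A knockout, and 15.9% rose and 18.7% fell with NKX2-2 knockout. CP, ceruloplasmin, had -2.04 and 2.96 and APOA1, the main HDL protein, -1.06 and 1.81, while ALB, albumin, rose in both, at 0.92 and 2.68 (difference -1.76 (adjusted p 4e-10, SE 0.13)). Of 25 genes of liver enzymes and transporters, 19 rose with CLEC16A knockout and 7 were in the opposite class. With NKX2-2 knockout 7 of the 25 fell and 2 rose, and their median was 0.06. G6PC, the last enzyme of glucose output, stood at 21.9, 25.3 and 19.6 CPM in the 3 wild type and 9.02, 9.19 and 8.73 CPM in the 3 knockout libraries with NKX2-2 and 12.7, 11.7 and 11.1 CPM in the 3 wild type and 188, 176 and 241 CPM in the 3 knockout libraries with CLEC16A. It fell 2.48-fold and rose 17.1-fold. PCK1, another gluconeogenic enzyme, had -1.41 and 2.25, and ASS1, of the urea cycle, -1.53 and 1.18. Summed levels of the 4 liver markers AFP, ALB, APOA1 and FGB ran from 7915 to 9346 CPM in PB-N2-WT, 7762 to 10140.0 in PB-N2-KO, 3981 to 4154 in PB-C16-WT and 11140.0 to 12020.0 in PB-C16-KO. Those of the 4 intestine markers CDX2, FABP2, CDH17 and VIL1 ran from 1083 to 1197 CPM, 704 to 745 CPM, 695.5 to 714 CPM and 1739 to 1956 CPM in the same order. Their part in the results was not tested.

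Of 20 duct genes, 7 were lower with NKX2-2 and higher with CLEC16A knockout, beside 6.02% of all genes. ELF3, an epithelial transcription factor, had -1.13 and 1.43 (difference -2.56 (adjusted p 5.63e-13, SE 0.13)) and SOX9, a progenitor and duct factor, -0.87 and 0.71. HNF4A, a transcription factor of liver, gut and pancreas, stood at 185, 205 and 153 CPM in the 3 wild type and 93.1, 76.2 and 65.8 CPM in the 3 knockout libraries with NKX2-2 and 159, 155 and 157 CPM in the 3 wild type and 322, 325 and 352 CPM in the 3 knockout libraries with CLEC16A. Both groups of each experiment were apart, in opposite directions, with a difference of -2.29 (adjusted p 8.11e-11, SE 0.16).

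Among immediate early genes, 6 of 19 were in the same class, beside 6.02% of all genes. FOS, a component of AP-1, stood at 23.6, 24.4 and 19.0 CPM in the 3 wild type and 4.11, 7.75 and 5.16 CPM in the 3 knockout libraries with NKX2-2 and 7.62, 10.2 and 9.74 CPM in the 3 wild type and 24.9, 26.1 and 37.6 CPM in the 3 knockout libraries with CLEC16A. Its log2 fold changes were -1.96 and 1.69, and those of JUNB and ZFP36, an mRNA decay factor, were -0.92 and 0.93 and -0.94 and 1.27. Of 24 cholesterol synthesis genes, 18 fell with NKX2-2 knockout and none rose, beside 18.7% and 15.9% of all genes. With CLEC16A knockout they were divided, with 6 higher and 7 lower, beside 18.9% and 21.4%. So 6 were lower with NKX2-2 and higher with CLEC16A knockout and 5 were lower in both, among them MVK, mevalonate kinase, at -0.49 and -0.74. Over all genes 6.02% and 5.53% were in these classes. Of 26 ER stress genes, 20 rose with CLEC16A knockout, beside 18.9% of all genes. With NKX2-2 knockout 7 fell and 2 rose, beside 18.7% and 15.9% of all genes, and the median log2 fold change was -0.04. TRIB3, a pseudokinase, had -1.34 and 0.74 and DDIT4, an inhibitor of mTOR, -1.20 and 0.94. The 7 in opposite directions were 4 and 3 in fits of deposited TPM.

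Single genes with large effects in this direction lay outside the lists' main themes. DUOX2, an epithelial oxidase that makes hydrogen peroxide, stood at 27.4, 34.1 and 20.2 CPM in the 3 wild type and 1.66, 0.72 and 0.637 CPM in the 3 knockout libraries with NKX2-2 and 94.1, 105 and 83.8 CPM in the 3 wild type and 308, 287 and 416 CPM in the 3 knockout libraries with CLEC16A. CD70, a TNF family ligand, had -2.89 and 4.38. Both were lower in every NKX2-2 knockout library and higher in every CLEC16A knockout library than in the matching wild type, as the choice of these genes required. ZBED6CL had 10 counts over PB-C16-WT and 3396 over PB-C16-KO, while its fall with NKX2-2 knockout of -0.49 (adjusted p 0.0207, SE 0.16) was lost without PB-N2-KO replicate 2 or 3 or both PB-N2 libraries numbered 3, without PB-N2-WT replicate 1 and with limma on log2(TPM + 0.1).

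The class higher in both was the smallest. Its largest shared rises were in SPP1, CD8B, SULF1, LAMA4, VNN1 and ANXA1. SPP1, osteopontin, stood at 4.89, 6.92 and 4.18 CPM in the 3 wild type and 30.4, 33.0 and 42.2 CPM in the 3 knockout libraries with NKX2-2 and at 1.80, 1.67 and 1.97 CPM in the 3 wild type and 10.4, 11.6 and 15.3 CPM in the 3 knockout libraries with CLEC16A. Knockout libraries were the higher in both, as the choice of these genes required, at 2.72 and 2.77, with no called difference (adjusted p 0.89). LAMA4, a laminin chain, had 1.52 and 1.58, SULF1, an extracellular sulfatase, 1.64 and 1.71, and ANXA1, annexin A1, 2.41 and 1.50 (difference 0.92 (adjusted p 0.000109, SE 0.17)). CD8B had 1.81 and 1.97 and VNN1, a pantetheinase, 1.78 and 2.77.

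Few genes of nuclear oxidative phosphorylation differed between the knockouts. Of 35, 30 did not pass the test of the difference and 5 were lower with NKX2-2 knockout, a share below the 20.7% of all genes lower. The 5 became 9 without PB-N2-KO replicate 3 and 3 without PB-C16-KO replicate 2. Median log2 fold changes were 0.13 and 0.09. SDHB, a subunit of complex II, had -0.06 (adjusted p 0.71, SE 0.11) and 0.51 (adjusted p 0.000482, SE 0.11), and a difference of -0.57 (adjusted p 0.00429, SE 0.15). Of 34 genes of mitophagy and autophagy, the process that CLEC16A regulates, 18 did not pass, 11 were lower and 5 higher with NKX2-2 knockout, beside 20.7% of all genes lower and 19.8% higher. The 5 became 3 without PB-C16-KO replicate 3, PB-C16-WT replicate 2 or 3 or PB-N2-WT replicate 1 or 2. OPTN, a mitophagy receptor, stood at 103, 113 and 106 CPM in the 3 wild type and 80.5, 65.8 and 74.2 CPM in the 3 knockout libraries with NKX2-2 and 63.3, 64.8 and 59.3 CPM in the 3 wild type and 188, 179 and 218 CPM in the 3 knockout libraries with CLEC16A. It moved in opposite directions, at -0.55 and 1.64 (difference -2.19 (adjusted p 1.25e-11, SE 0.14)), as did SQSTM1, the receptor p62, at -0.42 and 0.44. ULK1, which starts autophagy, and ATG5, of the conjugation machinery, passed in neither, at -0.02 and -0.01 and -0.09 and -0.04.

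**Figure D3:**
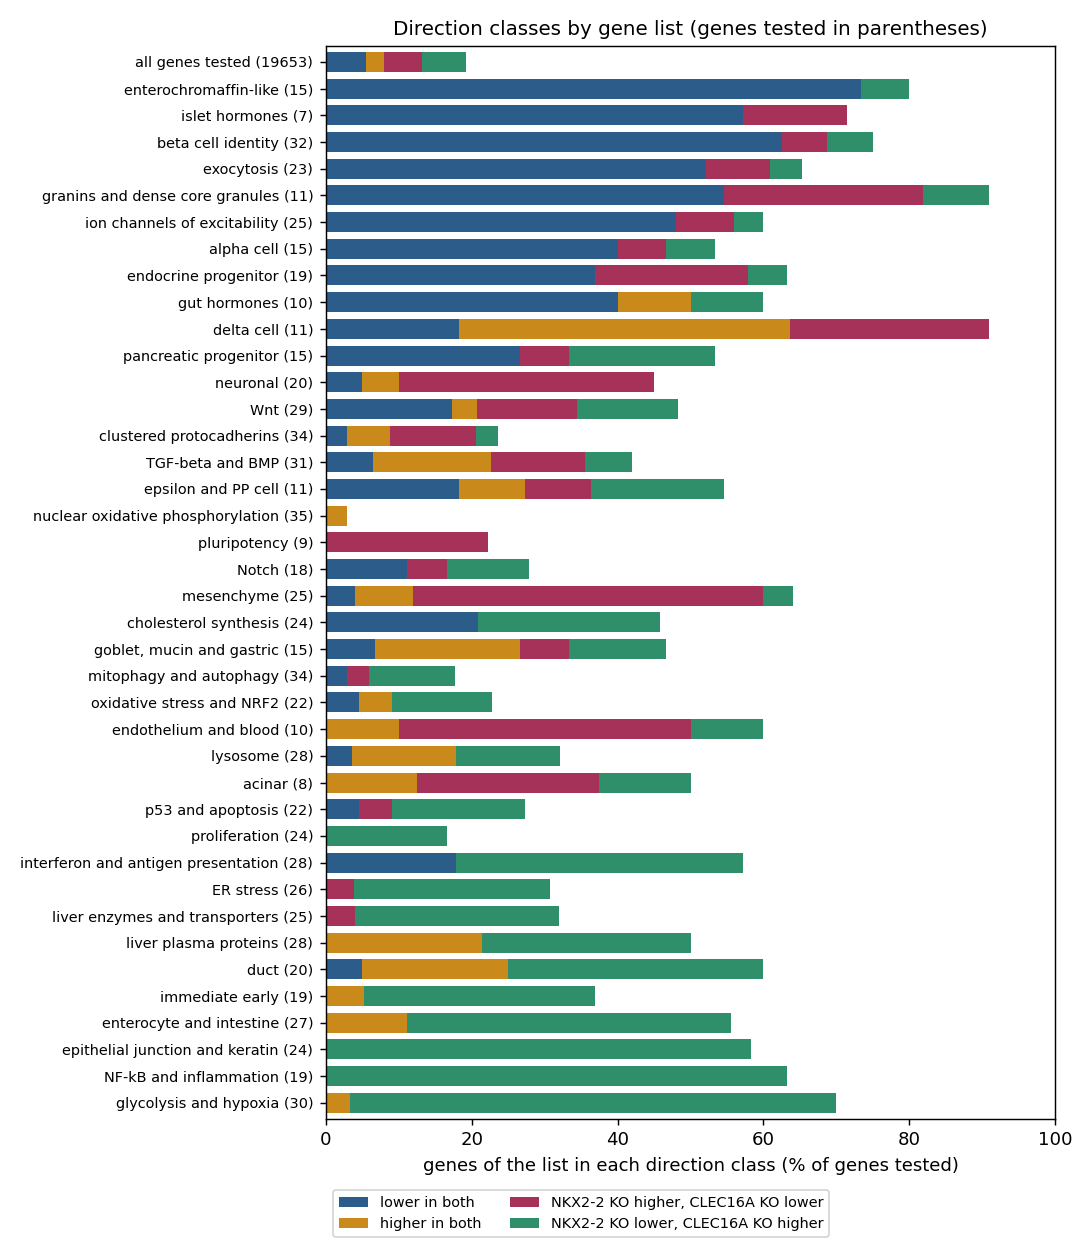
Share of the genes tested in each of 39 gene lists that fell into each direction class, with all 19653 genes at the top; a gene can be in more than 1 list. Beta cell identity (20 of 32) and enterochromaffin-like genes (11 of 15) lead with genes lower in both, delta cell genes (2 of 11) do not, and glycolysis and hypoxia (20 of 30) leads the lists lower with NKX2-2 and higher with CLEC16A knockout.

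**Figure D4:**
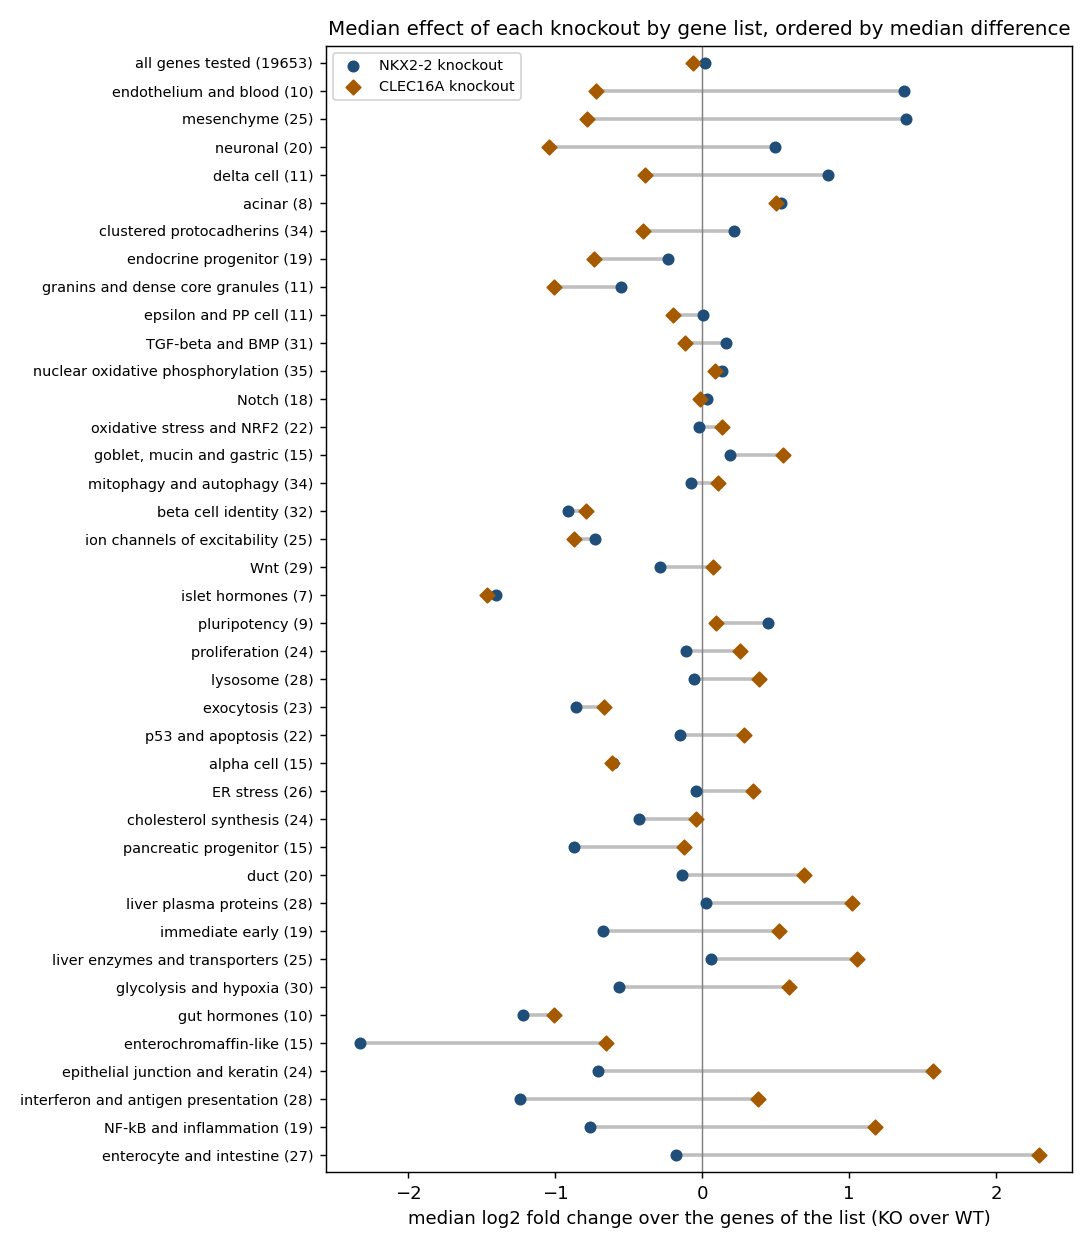
Median log2 fold change over the genes tested of each list, with NKX2-2 knockout (circles) and CLEC16A knockout (diamonds), ordered by the median difference. Mesenchyme lies at 1.38 and -0.79, interferon and antigen presentation at -1.24 and 0.38, and beta cell identity at -0.91 and -0.79.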

How the data were processed

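The authors deposited, for each experiment, raw counts per Ensembl gene and TPM values, with replicates kept apart. The submitters' processing notes list the build hg38 and the tools HISAT2 2.2.1, StringTie 2.1.7 and fastp 0.22.0. How reads were counted, and whether by strand, is not given in the sources used here. Overlapping and antisense genes may share reads. Groups and replicate numbers came from sample titles.

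Counts of both tables were joined by gene identifier. Genes were kept with at least 10 counts summed over each experiment and past edgeR's filterByExpr. Left out were genes short of counts in the NKX2-2 tables: mean TPM of at least 2 with a mean count under 10, or mean TPM of at least 2 in both, a mean of 200 counts or more in either and counts per TPM at least 4 times lower than in the CLEC16A tables relative to the median gene. One edgeR 4.0.16 fit (R 4.3.3, TMM, robust quasi-likelihood) of the 12 libraries gave both knockout effects and their difference, with Benjamini-Hochberg adjustment at 0.05. SE was computed as |log2 fold change| divided by the root of F. The fit was tested on simulated counts in which far fewer genes changed than were called here, in balanced directions. That run cannot check the scaling. Alternatives were DESeq2 1.42.0, limma 3.58.1 on log2(TPM + 1) and log2(TPM + 0.1), other scalings and filters, leaving out each library, and a replicate block. The fit without both PB-N2 libraries numbered 3 was added after seeing the data.

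The contrast, the 39 gene lists and the tests were chosen with earlier results of these data known. Genes named were the targets, the hormone and identity genes, the 8 largest of each opposite class and of the class lower in both and the 6 largest of the class higher in both (at least 5 CPM, groups apart), and for each list the 3 with the smallest p and, where led by falls in both, the 3 largest falls. Some genes that these rules pick are not reported here. Other list members named, such as TPH1, IFIT3 and IFI6, and the motifs were chosen after their values were seen. Coordinates are from GENCODE 29 (GRCh38). RefSeq's promoter table (GRCh38.p14) matched 12787 of 19653 tested genes by symbol. Its starts differ from those of GENCODE 29, so the stretches shown overlap the gene spans given, that of ALDOC wholly. Intervals and floors cover counting error only.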

Additional observations from a re-analysis of the deposited data

Results flagged for a closer look

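The knockout effects differed between the 2 experiments by the test of the difference itself, which marks the result for a second look: 3888 genes were higher and 4070 lower with NKX2-2 knockout (edgeR), and under upper-quartile scaling 4768 and 3498. Each effect is taken against the wild type of its own experiment, and the experiments differ in depth and in how their tables were made.

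The 37 mitochondrial DNA genes lay outside the contrast because they are at 0 counts in the CLEC16A tables. In the NKX2-2 tables they held 7.58%, 7.05% and 8.02% of counts in the wild type libraries (7.55% ± 0.484, SD, n = 3) and 9.13%, 10.2% and 9.99% in the knockout libraries (9.76% ± 0.553, SD, n = 3). The knockout libraries lay above the wild type libraries without overlap, and no test of this share was run. A further 13 genes had at least 200 counts in the NKX2-2 and under 10 in the CLEC16A libraries, and 252 the reverse.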

How the results depend on the processing

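Counts of genes past the threshold were within 1.5 times of those reported under the alternatives run (25 for each knockout effect and the classes, 24 for the difference, which fitting each experiment alone does not give), with 1 exception: genes higher in both numbered 303 with limma on log2(TPM + 1), and the cause was not tested. Leaving out 1 library gave 3407 to 4015 genes with a higher and 3699 to 4252 with a lower difference, 2427 to 3439 higher and 3029 to 3928 lower with NKX2-2 knockout, and 3301 to 3887 higher and 3547 to 4474 lower with CLEC16A knockout. It gave 905 to 1236 genes lower in both, 397 to 581 higher in both, 833 to 1058 higher with NKX2-2 and lower with CLEC16A knockout and 1001 to 1232 the reverse. Same-numbered libraries deviated together at r of 0.241, 0.087 and 0.561 in the NKX2-2 and 0.016, 0.034 and -0.044 in the CLEC16A experiment. Differently numbered libraries ran from -0.412 to 0.322 in the NKX2-2 and from -0.068 to 0.065 in the CLEC16A experiment. Only the NKX2-2 libraries numbered 3 lay above these ranges. Whether the numbers pair the samples is not known, and the reported fit did not use them. With a replicate block, 4416 genes were higher and 4521 lower, and the 4 classes held 1379, 617, 1251 and 1429 genes. Upper-quartile scaling moved the median difference over all genes from 0.06 to 0.17, and it and fits of TPM turned the balance of calls toward higher differences (57.7% under upper-quartile scaling). Of 571 called values of named genes, 527 kept direction and call under every alternative. Among named values that passed the test as reported or under the alternative, those that changed sign were the difference of NELL1 (0.42) and SKOR2 (0.91) with limma on log2(TPM + 1), and the CLEC16A effect on SC5D, 0.49 as fitted on counts and -0.14 with limma on either log2 TPM scale; the cause was not tested. Other values that passed in neither also changed sign, such as the CLEC16A effect on IAPP. The NKX2-2 libraries held fewer counts than the others, and the part of this in the calls was not tested.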

Other observations

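Signalling lists not described above were divided between the classes. Of 31 genes of the TGF-beta and BMP pathways, 12 had a difference higher with NKX2-2 knockout and 5 lower, beside 19.8% and 20.7% of all genes. BMP7, a BMP ligand, had log2 fold changes of 0.88 and -1.82 with NKX2-2 and CLEC16A knockout (difference 2.69 (adjusted p 3.75e-09, SE 0.24) by edgeR). ID4, a BMP target, had 0.84 and -1.57, and TGFB2, a ligand, 1.25 and -0.69. Of 29 Wnt genes, 9 were higher and 8 lower with NKX2-2 knockout, beside the same shares. WNT5A, a ligand of non-canonical signalling, stood at 67.8, 62.1 and 57.2 CPM in the 3 wild type and 114, 116 and 111 CPM in the 3 knockout libraries with NKX2-2 and at 58.6, 59.5 and 57.8 CPM in the 3 wild type and 18.1, 20.4 and 17.0 CPM in the 3 knockout libraries with CLEC16A, and its difference was 2.53 (adjusted p 8.49e-13, SE 0.13). NOTCH3, a Notch receptor, had 0.21 (adjusted p 0.254, SE 0.14) and -1.76 (adjusted p 4.84e-10, SE 0.14), with a difference of 1.97 (adjusted p 1.89e-08, SE 0.19).

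Lysosomal genes with a called difference were all lower with NKX2-2 than with CLEC16A knockout. Of 28, 14 had a difference lower with NKX2-2 knockout, beside 20.7% of all genes, and none higher. With CLEC16A knockout 19 rose, beside 18.9% of all genes. With NKX2-2 knockout 5 rose and 6 fell, near the 15.9% and 18.7% of all genes, and the median log2 fold change was -0.06. Of the 28, 4 fell with NKX2-2 knockout and rose with CLEC16A knockout, and 4 rose in both, beside 6.02% and 2.41% of all genes. CTSS, a cathepsin, stood at 51.5, 59.5 and 64.4 CPM in the 3 wild type and 27.9, 34.6 and 36.4 CPM in the 3 knockout libraries with NKX2-2 and at 16.3, 15.9 and 15.8 CPM in the 3 wild type and 82.2, 95.9 and 106 CPM in the 3 knockout libraries with CLEC16A. The groups were apart in both experiments, and the log2 fold changes were -0.82 and 2.56. CTSZ and CTSB, other cathepsins of that opposite class, had -1.42 and 0.39 and -0.90 and 0.63. Of 24 proliferation genes, 9 rose with CLEC16A knockout and none fell, beside 18.9% and 21.4% of all genes, while with NKX2-2 knockout 6 fell and 2 rose, beside 18.7% and 15.9%. Of 34 clustered protocadherin genes, which share sequence with one another so that their counts are uncertain, 8 had a difference higher and 5 lower with NKX2-2 knockout, near the shares over all genes.

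CHGA, left out of the tests, had 9058, 11020.0 and 7934 counts in PB-N2-WT and 2525, 3107 and 3138 in PB-N2-KO, and TPM in the deposited table of 4062, 4170.0 and 4414 and of 1809, 1488 and 1650.0. In the CLEC16A experiment its TPM was 25570.0, 27740.0 and 26090.0 in wild type and 13980.0, 14490.0 and 12420.0 in knockout libraries. The knockout libraries were the lower in both experiments.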
